A study of Mus musculus with 9 samples.

Results

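The genes described here are 36 regulators of pre-mRNA splicing in mouse liver: the 4 CDC-like kinases, 3 further kinases tied to splicing factors, 11 SR proteins, both TRA2 proteins, 3 LUC7 proteins, 4 RNA-binding motif (RBM) proteins, both L-type cyclins and 7 other SR-like proteins. They were taken by gene symbol from the signal sheet, and each of the 36 is read by exactly 1 of its 22206 probe sets. The set was proposed with earlier comparisons of these same arrays in view. The differences from vehicle given below are therefore descriptions of the set, and the counts over it carry no test of their own.

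SR proteins carry a domain rich in arginine and serine, bind enhancer sequences in exons and recruit the splicing machinery to nearby splice sites. CDC-like kinases (CLKs) phosphorylate that domain in the nucleus and release SR proteins from nuclear speckles, whereas SRPK kinases act mainly in the cytoplasm and promote import into the nucleus. Many transcripts of these families also exist as unproductive isoforms, with retained introns or with a poison exon that leads to nonsense-mediated decay, and the CLK-SR system is known to respond to temperature, feeding and stress. In liver, SR proteins take part in maturation of hepatocytes and in splicing of metabolic genes.

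All mice were male C57BL/6JHamSlc-ob/ob animals, a strain that lacks functional leptin and grows obese. They were 6 weeks old when obtained and ate standard chow. The vehicle group was gavaged with vehicle alone, the VE50 group with VE, which is extract of the legume Vigna umbellata, at 50 mg/kg body weight and the VE100 group with 100 mg/kg, each for 42 days. Each of the 3 groups has 3 Clariom S arrays of liver RNA. The composition of vehicle and extract and the hour of sampling are not given in the sources used here. The labels do not say that replicate arrays came from separate animals, so p-values measure only the spread between these arrays, which may be technical. In whole liver, fewer cells of a type and less RNA per cell cannot be told apart.

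Signal of 8 of the 9 arrays correlated across probe sets at 0.974 to 0.990, and vehicle array 3 reached 0.948 to 0.967 with the others. All 8 hepatocyte markers exceeded the signal under which 95% of an array's negative control probe sets lie, with a mean log2 signal of 18.34 to 18.83 over the arrays. Here and below, comparison with this percentile uses a second deposited set of values that includes the control probe sets. Those values differ from the printed signal values, which cannot be set against the percentile directly. None of the lymphocyte, neutrophil, adipocyte or striated muscle markers exceeded this negative control percentile on any array. Mean log2 signal of the 8 macrophage markers was 6.92 to 7.18 in vehicle, 6.42 to 7.54 in VE50 and 5.69 to 6.69 in VE100, so VE100 lay below vehicle. Only 2 of those 8 exceeded the percentile on any array, and their part in the differences below was not tested.

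Most of the 36 genes had higher signal in treated than in vehicle liver. At 50 mg/kg the group mean was above vehicle for 32 of them, and at 100 mg/kg for 31, against 48.9% and 48.4% of all probe sets. The median difference of the set was 0.57 at 50 mg/kg and 0.61 at 100 mg/kg on the log2 scale, beside medians of -0.0067 and -0.013 over all probe sets. The counts below include probe sets of low signal, because the study's detection filter was not applied here. The study called a probe set changed where its fold exceeded 1.1 and its p, without adjustment, was under 0.05. By that criterion, computed with limma, 16 members were higher and 0 lower at 50 mg/kg, where 3.31% of all probe sets were higher and 2.8% lower. At 100 mg/kg, 18 members were higher and 0 lower, where 5.11% of all probe sets were higher and 4.37% lower. Both comparisons use the same 3 vehicle arrays, so the 2 counts are not independent.

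No member passed an adjusted p of 0.05 in limma (Benjamini-Hochberg over all probe sets) at either dose, and 0% of all probe sets did. The smallest adjusted p of a member was 0.794 at 50 mg/kg and 0.294 at 100 mg/kg. At an unadjusted p under 0.05 the counts were 16 and 18 members, and 1358 and 2105 of all probe sets, so the fold limit removed none.

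**Figure D1:**
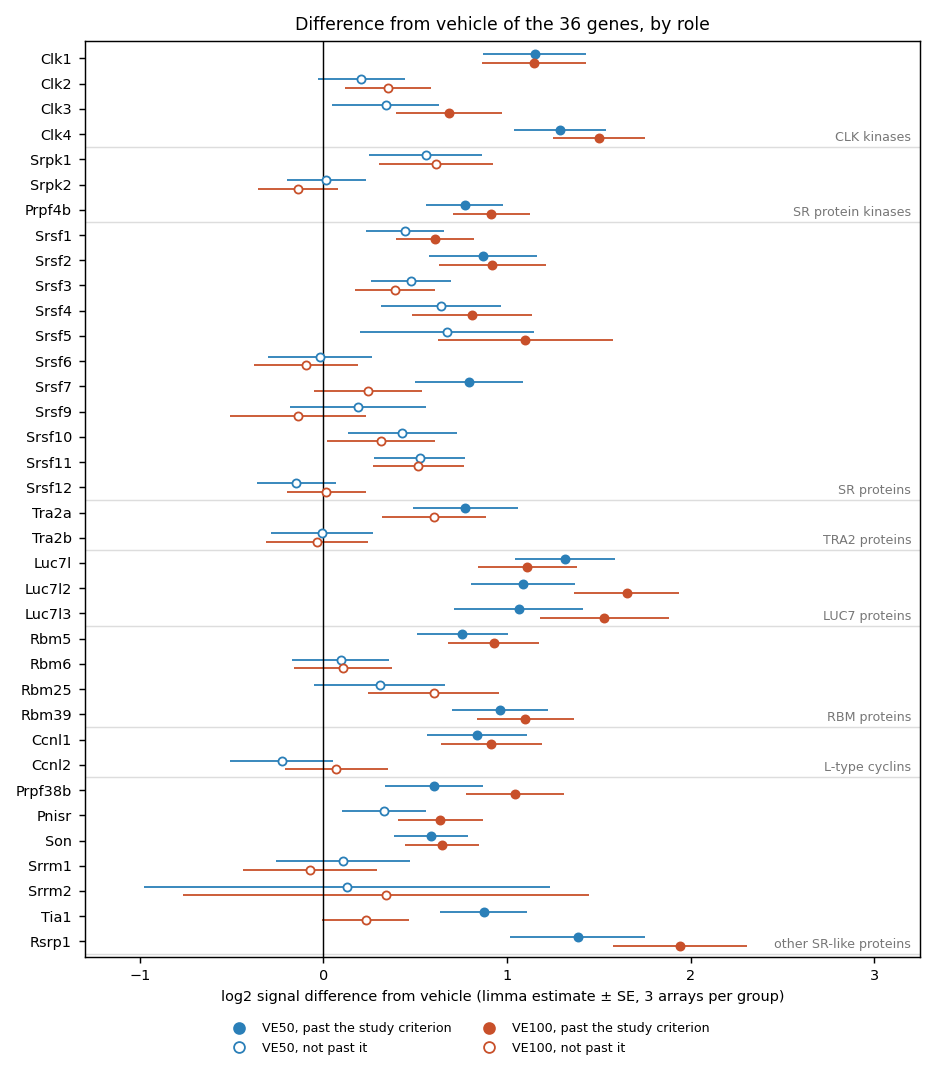
Log2 signal difference from vehicle (x axis) for each of the 36 genes (y axis, grouped by role), blue for 50 mg/kg and orange for 100 mg/kg, as the limma estimate with its standard error over 3 arrays per group; filled points are past the study criterion. Filled points lie on the right in both colours for 13 genes, with Rsrp1 farthest out at 1.94, while Rbm6, Tra2b and Srpk2 sit near 0.

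The calls at both doses fell on 13 genes: Clk1, Clk4, Prpf4b, Srsf2, Luc7l, Luc7l2, Luc7l3, Rbm5, Rbm39, Ccnl1, Prpf38b, Son and Rsrp1. The share of all probe sets called at both doses is not given here. Because the vehicle arrays are shared, a call at one dose makes a call at the other more likely. Srsf7, Tra2a and Tia1 passed at 50 mg/kg, and Clk3, Srsf1, Srsf4, Srsf5 and Pnisr at 100 mg/kg. The other 15 passed in no comparison. For 17 members, all 6 treated arrays lay above all 3 vehicle arrays, a pattern seen in 2.91% of all probe sets. Arrays of 19 members did not overlap with vehicle at 50 mg/kg and lay higher, beside 6.16% of all probe sets, and 19 did so at 100 mg/kg, beside 7.47%.

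Signal strength limits what can be read from some of the probe sets. Only 14 members exceeded the negative control percentile on all 9 arrays, and 11 did so on none: Clk2, Clk3, Srsf6, Srsf7, Srsf9, Srsf10, Srsf12, Luc7l, Rbm25, Pnisr and Tia1. Clk1, Srsf3, Tra2a, Luc7l3 and Rbm5 exceeded it on 0 of 3 vehicle arrays and on some treated arrays. For these and the 11 dim genes the log2 differences are between measured signals that lie within the range of the negative controls in vehicle, and no linear fold is given. Each gene has 1 probe set, so isoforms, retained introns and poison exons cannot be told apart here.

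Promoter sequence is shown for 5 of the genes, because their signal lay higher in treated liver and their starts carry motifs that few promoters hold, or, for Rsrp1, because its difference was the largest. RefSeq (GRCm38.p6) gave windows of 250 bases before to 50 after the start for 33 of the 36 genes. In Clk4 (chr11:51262864-51263163, plus strand), Tra2a (chr6:49264003-49264302, minus strand) and Ccnl1 (chr3:65958200-65958499, minus strand) the window holds the cAMP response element TGACGTCA. The first Rbm39 window (chr2:156180189-156180488, minus strand) holds TCTCGCG 5 times over both strands, with matches that overlap each other. Rsrp1 is at chr4:134923375-134923674, plus strand. Capitals mark the element TGACGTCA, the motif TCTCGCG, the box CCAAT, the ETS motif CCGGAAG, the YY1 motif AAGATGGCG and the E-box CACGTG on either strand, each sequence being written 5′ to 3′ along its gene.
Clk4: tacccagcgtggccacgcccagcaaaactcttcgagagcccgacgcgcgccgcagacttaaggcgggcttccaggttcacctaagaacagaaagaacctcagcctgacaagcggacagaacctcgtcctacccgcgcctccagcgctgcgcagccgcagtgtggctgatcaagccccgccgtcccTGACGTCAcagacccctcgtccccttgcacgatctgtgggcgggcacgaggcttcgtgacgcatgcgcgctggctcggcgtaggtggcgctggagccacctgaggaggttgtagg
Tra2a: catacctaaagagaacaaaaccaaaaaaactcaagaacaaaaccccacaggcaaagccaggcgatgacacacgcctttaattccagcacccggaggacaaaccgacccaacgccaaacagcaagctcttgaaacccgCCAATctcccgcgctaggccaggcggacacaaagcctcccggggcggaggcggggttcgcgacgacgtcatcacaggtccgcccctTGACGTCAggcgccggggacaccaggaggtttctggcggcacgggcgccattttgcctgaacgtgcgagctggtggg
Rbm39: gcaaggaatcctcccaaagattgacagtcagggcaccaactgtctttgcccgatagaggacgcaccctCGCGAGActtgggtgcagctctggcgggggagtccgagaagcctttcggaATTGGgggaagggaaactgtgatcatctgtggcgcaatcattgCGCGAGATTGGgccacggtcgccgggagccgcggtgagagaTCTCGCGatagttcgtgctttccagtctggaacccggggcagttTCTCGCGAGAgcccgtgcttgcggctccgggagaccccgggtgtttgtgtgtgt
Ccnl1: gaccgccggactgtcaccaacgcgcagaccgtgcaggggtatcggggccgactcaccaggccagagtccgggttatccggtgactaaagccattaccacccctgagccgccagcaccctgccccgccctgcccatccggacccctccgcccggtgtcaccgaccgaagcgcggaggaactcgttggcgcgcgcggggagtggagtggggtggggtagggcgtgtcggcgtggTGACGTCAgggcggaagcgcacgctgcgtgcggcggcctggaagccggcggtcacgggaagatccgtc
Rsrp1: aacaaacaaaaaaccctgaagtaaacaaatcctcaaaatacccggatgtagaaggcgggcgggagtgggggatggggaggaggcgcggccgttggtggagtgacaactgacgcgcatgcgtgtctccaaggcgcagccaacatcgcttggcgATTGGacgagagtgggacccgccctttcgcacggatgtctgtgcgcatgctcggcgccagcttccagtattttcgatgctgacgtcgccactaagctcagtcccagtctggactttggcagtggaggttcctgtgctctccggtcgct

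Across the set, TGACGTCA was found in 3 of 33 genes with a window (9.09%) and in 1.79% of all 32851 promoter windows. TCTCGCG was found in 5 genes (15.2%) and in 2.56% of windows, and CCGGAAG in 7 (21.2%) and 8.86%. The GC box GGGCGG was in 24 genes (72.7%) and in 35.7% of windows. CCAAT was in 16 genes (48.5%), beside 37.4% of windows. Member windows were also richer in G and C, with a median of 64.7% against 52.7%, which bears on how often such letters occur. AAGATGGCG was in 1 gene (3.03%, beside 1.4%), CACGTG in 1 (3.03%, beside 7.15%) and TATAAA in 4 (12.1%, beside 13.6%). The glucocorticoid half-site AGAACA was in 5 genes (15.2%) and in 19% of windows, and the nuclear receptor half-site AGGTCA in 3 (9.09%) and 16.3%. All 3 genes with TGACGTCA are among the 18 with a window that passed the criterion at some dose, and 15 with a window did not pass. In passing and other genes in turn, TCTCGCG was in 2 and 3, CCGGAAG in 5 and 2, and GGGCGG in 13 and 11. CCAAT was in 9 and 7, AAGATGGCG in 1 and 0, CACGTG in 0 and 1, and TATAAA in 1 and 3. AGAACA was in 2 and 3, and AGGTCA in 0 and 3. These motifs were chosen after the expression values were known, and a gene with several windows counts once if any holds the letters, so the shares are a description of sequence only.

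Among the CDC-like kinases, Clk1 and Clk4 lay higher at both doses. These close relatives regulate their own splicing, and their inactive transcripts with retained introns are a store that can be spliced later. Clk4 read 10.07, 9.89 and 9.91 on the vehicle arrays, 11.34, 11.44 and 10.96 on the VE50 arrays, and 11.93, 11.19 and 11.25 on the VE100 arrays. The groups did not overlap at either dose, and the 3 vehicle values lay close together. The log2 difference was 1.29 ± 0.25 (SE, n = 3 per group) at 50 mg/kg and 1.5 ± 0.25 at 100 mg/kg, which is 2.45-fold and 2.83-fold. Its limma adjusted p was 0.794 and 0.294.

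Clk1 read 7.63, 7.94 and 8.36 in vehicle, 9.42, 8.79 and 9.17 in VE50, and 9.54, 9.0 and 8.83 in VE100. It lay above the negative control percentile on 0 of 3 vehicle arrays and on all 3 arrays of each dose, so only the treated groups exceeded it. The difference was 1.15 ± 0.28 at both doses. With either of 2 control-probe measures as a covariate, its call at 100 mg/kg was lost (0.69 and 0.94), while that at 50 mg/kg was not.

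Clk3, which was dim on all arrays, read 7.63, 7.99 and 6.87 in vehicle, 7.76, 8.11 and 7.64 in VE50, and 8.36, 8.11 and 8.07 in VE100. Its VE100 arrays all lay above vehicle, but the VE50 arrays overlapped with it. The difference at 100 mg/kg was 0.68 ± 0.29, and without vehicle array 3 it was 0.37 and no longer past the criterion. The call was also lost without vehicle 1 (0.75), VE50 1 (0.68), VE100 1 (0.59), VE100 2 (0.72) or VE100 3 (0.74), and with array weights (0.36), median-centred arrays (0.70), the deposited value table (0.58) or only the groups compared (0.68). Clk2, the remaining relative and also dim, differed by 0.21 ± 0.24 and 0.35 ± 0.24.

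Of the other kinases, Prpf4b lay higher at both doses. It is a nuclear kinase of the splicing machinery that phosphorylates other spliceosome proteins. Prpf4b read 8.47, 8.67 and 8.29 in vehicle, 9.09, 9.43 and 9.22 in VE50, and 9.57, 9.38 and 9.22 in VE100. All treated arrays exceeded all vehicle arrays, by 0.77 ± 0.21 and 0.91 ± 0.21. Srpk1 and Srpk2, named as its relatives in function after their values were seen, passed at no dose. Srpk1 differed by 0.56 ± 0.31 and 0.61 ± 0.31, and Srpk2 by 0.02 ± 0.22 and -0.14 ± 0.22. Over the 9 arrays, Srpk2 spanned 0.54, the narrowest range of the 36 genes.

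**Figure D2:**
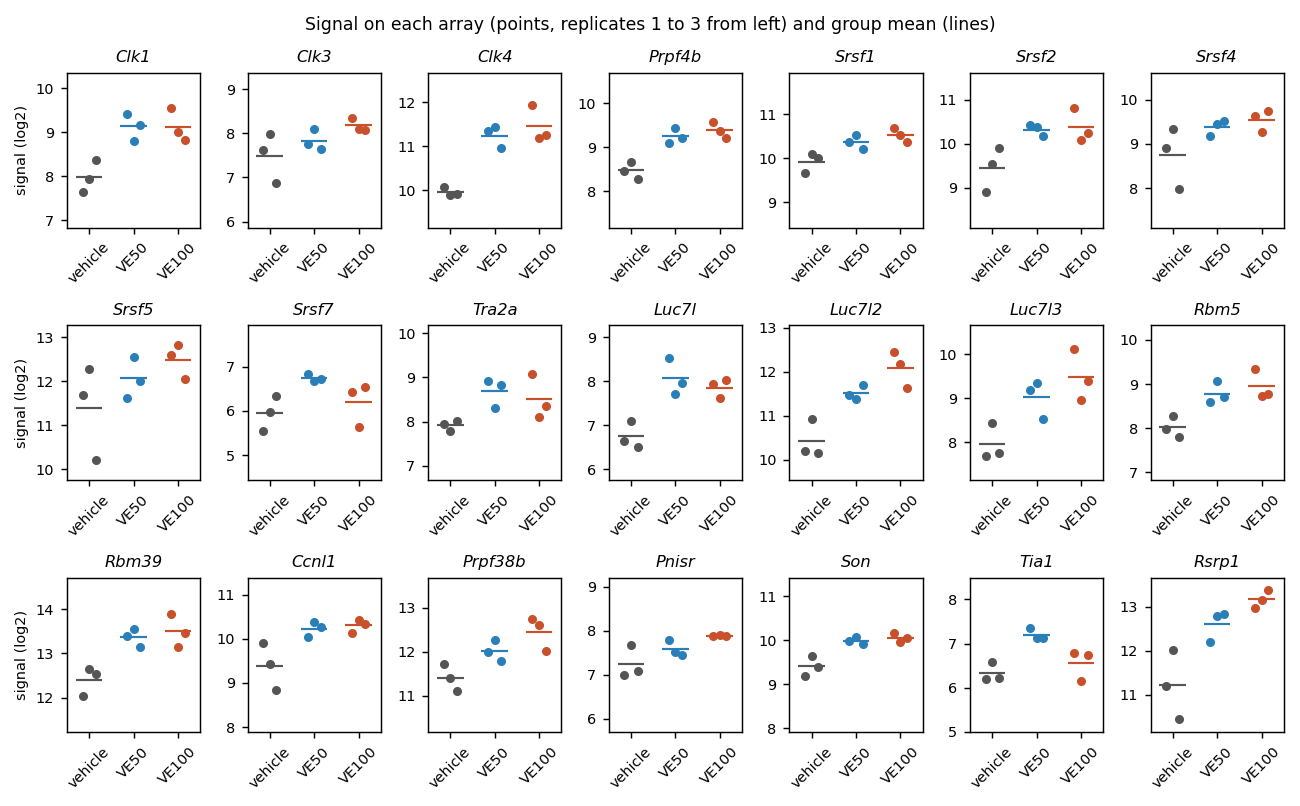
Log2 signal on each array (y axis) for the 21 members past the study criterion in any comparison, 1 panel per gene, with the 3 arrays of vehicle, VE50 and VE100 on the x axis and a bar at each group mean. In the panels of Clk4, Luc7l2, Rbm39 and Rsrp1 every treated point lies above every vehicle point, while the Tia1 points of VE100 overlap with those of vehicle.

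Of the 11 SR proteins, 2 (18.2%) lay higher by the criterion at 50 mg/kg and 4 (36.4%) at 100 mg/kg, and none lay lower. Over all probe sets 3.31% and 5.11% were higher, and 2.8% and 4.37% lower. Srsf2, which binds exon enhancers and stays in the nucleus, was the SR protein called at both doses. Srsf2 read 8.90, 9.55 and 9.91 in vehicle, 10.42, 10.37 and 10.18 in VE50, and 10.80, 10.08 and 10.24 in VE100. The groups did not overlap, with differences of 0.87 ± 0.29 and 0.92 ± 0.29, or 1.83-fold and 1.89-fold. Without vehicle 1 the difference at 50 mg/kg was 0.59 and past the criterion no longer.

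Srsf1, the founding SR protein, read 9.67, 10.10 and 10 in vehicle, 10.38, 10.52 and 10.20 in VE50, and 10.69, 10.53 and 10.37 in VE100. All treated arrays lay above vehicle, yet only the difference of 0.61 ± 0.21 at 100 mg/kg passed, beside 0.44 ± 0.21 at 50 mg/kg. That call was lost without vehicle 1 (0.48) or VE100 1 (0.53).

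Srsf4, a long SR protein, read 8.91, 9.34 and 7.97 in vehicle, 9.17, 9.45 and 9.52 in VE50, and 9.63, 9.28 and 9.74 in VE100. Vehicle 3 was the low array and the groups overlapped, with a difference of 0.81 ± 0.33 at 100 mg/kg. Without vehicle 3 it was 0.42 and no longer called. It was not called without VE100 1 (0.77) or VE100 3 (0.71), with array weights (0.40) or with only the groups compared (0.81).

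Srsf5, known in rat hepatoma cells as induced by insulin, read 11.69, 12.27 and 10.21 in vehicle, 11.62, 12.56 and 12.01 in VE50, and 12.59, 12.82 and 12.06 in VE100. Vehicle 3 again lay lowest and the groups overlapped. The difference of 1.10 ± 0.48 at 100 mg/kg became 0.51, not called, without vehicle 3. The call was also lost without VE50 3 (1.10), VE100 1 (1.05) or VE100 2 (0.94), and with array weights (0.59) or only the groups compared (1.10).

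Srsf7, an export adaptor for mRNA that was dim on all arrays, was the SR protein called at 50 mg/kg alone. Srsf7 read 5.54, 5.98 and 6.35 in vehicle, 6.84, 6.68 and 6.73 in VE50, and 6.43, 5.63 and 6.54 in VE100. The VE50 arrays lay above vehicle by 0.79 ± 0.29, and the VE100 arrays overlapped with it at 0.24 ± 0.29. The contrast between the doses, -0.55 ± 0.29, did not pass the criterion, so the doses are not shown to differ. The call at 50 mg/kg was lost without vehicle 1 (0.58) or VE50 1 (0.75).

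The 6 SR proteins without a call differed by -0.15 to 0.52 at 50 mg/kg and by -0.14 to 0.52 at 100 mg/kg. Among them Srsf3, the other export adaptor, which was above the negative control percentile on 1 VE50 array alone, and Srsf11 had treated arrays that all lay above vehicle. Their differences were 0.48 ± 0.22 and 0.39 ± 0.22 for Srsf3, and 0.52 ± 0.25 at both doses for Srsf11. Srsf6, a relative of Srsf4 and Srsf5, differed by -0.02 ± 0.28 and -0.09 ± 0.28.

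The TRA2 proteins bind GAA-rich exon enhancers and act with SR proteins, and Tra2a alone was called. Tra2a read 7.94, 7.78 and 8.02 in vehicle, 8.92, 8.30 and 8.84 in VE50, and 9.08, 8.11 and 8.36 in VE100. Every treated array lay above vehicle, and the difference of 0.77 ± 0.28 at 50 mg/kg was called while 0.60 ± 0.28 at 100 mg/kg was not. It exceeded the negative control percentile on 0 of 3 vehicle, 2 of 3 VE50 and 1 of 3 VE100 arrays. The call was lost without vehicle 2 (0.71), VE50 1 (0.66) or VE50 3 (0.70). Tra2b differed by -0.01 ± 0.28 and -0.03 ± 0.28. The difference between Tra2a and Tra2b was not tested.

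All 3 LUC7 genes were called at both doses, beside 3.31% and 5.11% of all probe sets that were higher. They encode relatives of a yeast protein of the U1 particle and influence the choice of 5′ splice sites. Luc7l2 read 10.20, 10.92 and 10.16 in vehicle, 11.47, 11.37 and 11.70 in VE50, and 12.44, 12.17 and 11.62 in VE100. The lowest treated array lay above the highest vehicle array. Luc7l2 lay higher by 1.09 ± 0.29 at 50 mg/kg and by 1.65 ± 0.29 at 100 mg/kg, or 2.12-fold and 3.14-fold, with a limma adjusted p of 0.294 at the higher dose.

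Luc7l3 read 7.69, 8.43 and 7.75 in vehicle, 9.19, 9.35 and 8.52 in VE50, and 10.11, 8.95 and 9.40 in VE100. No vehicle array exceeded the negative control percentile, against 2 of 3 arrays at each dose. Its differences were 1.06 ± 0.35 and 1.53 ± 0.35, and the first was not called without VE50 2 (0.90). Luc7l, dim on all arrays, read 6.64, 7.10 and 6.50 in vehicle, 8.53, 7.70 and 7.96 in VE50, and 7.94, 7.61 and 8.02 in VE100. Its groups did not overlap, with differences of 1.32 ± 0.27 and 1.11 ± 0.27. For all 3 genes the treated arrays lay above every vehicle array.

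In the RBM group, Rbm39 and Rbm5 lay higher at both doses. Rbm39, a relative of the splicing factor U2AF that also coactivates nuclear receptors, read 12.04, 12.64 and 12.54 in vehicle, 13.40, 13.56 and 13.14 in VE50, and 13.90, 13.15 and 13.47 in VE100. It was well above the negative controls everywhere, and its groups did not overlap. The differences were 0.96 ± 0.26 and 1.10 ± 0.26, which is 1.95-fold and 2.14-fold.

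Rbm5, a regulator of exon choice in apoptosis genes, read 7.99, 8.28 and 7.81 in vehicle, 8.59, 9.06 and 8.70 in VE50, and 9.35, 8.74 and 8.77 in VE100. It exceeded the negative control percentile on 0 of 3 vehicle, 1 of 3 VE50 and 2 of 3 VE100 arrays. The treated arrays lay above vehicle by 0.76 ± 0.25 and 0.93 ± 0.25, and without VE50 2 the first was 0.62 and not called. Rbm6, its relative and neighbour on chromosome 9, differed by 0.09 ± 0.27 and 0.11 ± 0.27. Rbm25, named after its values were seen as the last of the 4, differed by 0.31 ± 0.36 and 0.60 ± 0.36, without a call.

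The L-type cyclins, partners of the kinase CDK11 in splicing and transcription, gave 1 called gene. Ccnl1, known in rat brain as an immediate early gene, read 9.91, 9.43 and 8.84 in vehicle, 10.05, 10.38 and 10.26 in VE50, and 10.14, 10.44 and 10.34 in VE100. The treated values lay close together and above all vehicle arrays, by 0.84 ± 0.27 and 0.91 ± 0.27. Vehicle 3 lay lowest, and without it the differences were 0.56 and 0.64, still called. Ccnl2 differed by -0.23 ± 0.28 and 0.07 ± 0.28. No contrast between the 2 cyclins was tested.

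Of the 7 other splicing regulators, 4 were called higher at each dose, beside 3.31% and 5.11% of all probe sets. Rsrp1 had the largest difference of all 36 at both doses. Rsrp1 encodes a small protein rich in arginine and serine whose role is little known. Rsrp1 read 11.20, 12.02 and 10.44 in vehicle, 12.19, 12.79 and 12.83 in VE50, and 12.97, 13.14 and 13.37 in VE100. Every treated array lay above every vehicle array, by 1.38 ± 0.37 at 50 mg/kg and 1.94 ± 0.37 at 100 mg/kg, or 2.61-fold and 3.84-fold. Its limma adjusted p at 100 mg/kg was 0.305. Vehicle 3 was its lowest array, and without it the differences were 0.99 and 1.55.

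Prpf38b, a relative of a factor that activates the spliceosome, read 11.72, 11.41 and 11.11 in vehicle, 12.00, 12.26 and 11.79 in VE50, and 12.75, 12.61 and 12.01 in VE100. It lay higher by 0.60 ± 0.27 and 1.04 ± 0.27, without overlap. The call at 50 mg/kg was lost without vehicle 2 (0.60), vehicle 3 (0.45), VE50 1 (0.61), VE50 2 (0.48) or VE100 2 (0.60), and with array weights (0.51), median-centred arrays (0.61) or without the lowest 25% of probe sets (0.60). At 100 mg/kg it was called under every alternative tried.

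Son, a scaffold of nuclear speckles, read 9.18, 9.65 and 9.39 in vehicle, 9.98, 10.07 and 9.92 in VE50, and 10.16, 9.96 and 10.04 in VE100. The 6 treated arrays lay close together and above vehicle, by 0.58 ± 0.20 and 0.65 ± 0.20. Without vehicle 1 the first was 0.47 and not called, nor was it in the deposited value table (0.52). Pnisr, a dim gene whose protein binds the speckle protein pinin, read 7.0, 7.67 and 7.09 in vehicle, 7.79, 7.52 and 7.44 in VE50, and 7.87, 7.91 and 7.89 in VE100. Only the VE100 arrays stood clear of vehicle, by 0.64 ± 0.23, and this was not called without vehicle 1 (0.51) or with array weights (0.49).

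Srrm2, the other speckle scaffold, was the most variable of the 36 genes, as seen after its values were known. Srrm2 read 14.44, 14.50 and 9.82 in vehicle, 11.56, 14.09 and 13.49 in VE50, and 12.72, 13.69 and 13.37 in VE100. One vehicle array and one VE50 array lay far below the rest, and the 9 arrays spanned 4.68 on the log2 scale. Its differences were 0.13 ± 1.11 and 0.34 ± 1.11. Without vehicle 3 the sign turned, to -1.42 and -1.21, and the first was past the criterion as lower.

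Tia1, which binds U-rich sequence next to 5′ splice sites and forms stress granules, was the only member past the criterion between the doses. Tia1 read 6.19, 6.57 and 6.22 in vehicle, 7.35, 7.13 and 7.12 in VE50, and 6.78, 6.14 and 6.75 in VE100. The VE50 arrays lay above both other groups, and VE100 overlapped with vehicle. Against vehicle the differences were 0.87 ± 0.24 and 0.23 ± 0.24, and VE100 lay below VE50 by a log2 difference of -0.64 ± 0.24, with a limma adjusted p of 0.9997. This probe set was below the negative control percentile on all arrays.

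For the set as a whole, VE100 lay above VE50 in 23 genes and below in 13, with a median log2 difference of 0.11. By the criterion 0 members were higher and 1 was lower, where 1.49% of all probe sets were higher and 1.43% lower. No member passed the adjusted threshold in limma, nor did any probe set (0%), and 1 member had an unadjusted p under 0.05.

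**Figure D3:**
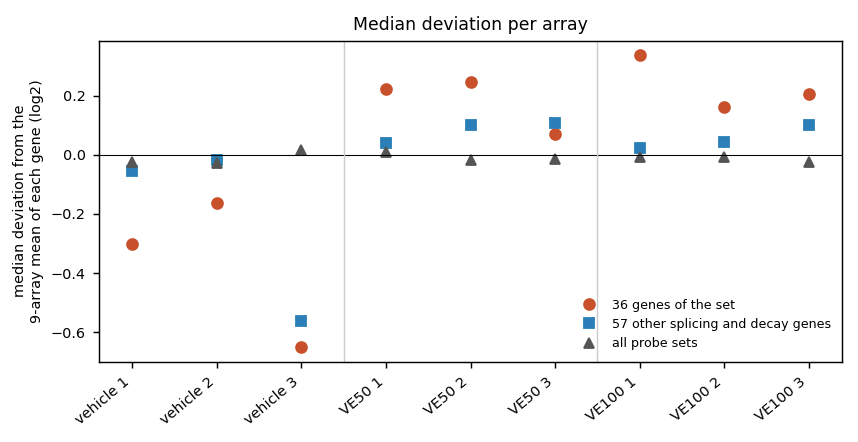
Median over genes of the signal on each array minus each gene's mean over the 9 arrays (y axis, log2), for the 36 genes, the 57 other splicing and RNA surveillance genes, and all probe sets, with the 9 arrays on the x axis. The medians of the 36 genes are below 0 on the 3 vehicle arrays and above 0 on the 6 treated arrays, whereas those of the 57 other genes are -0.56 on vehicle 3 and between -0.05 and 0.11 elsewhere.

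Taken array by array, with each gene centred on its mean over the 9 arrays, the median of the 36 genes was -0.30, -0.16 and -0.65 in vehicle. It was 0.22, 0.25 and 0.07 in VE50 and 0.34, 0.16 and 0.21 in VE100. Vehicle and treated arrays did not overlap in this median, while that of all probe sets stayed between -0.029 and 0.018. Vehicle 3 lay lowest, and it was the lowest of the 9 arrays for 19 of the 36 genes, beside 20.5% of all probe sets.

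Without vehicle 3, the medians of the set were 0.467 and 0.475, and those of all probe sets 0.0217 and 0.03. At 50 mg/kg 15 members were then higher and 1 lower, and at 100 mg/kg 15 were higher and 0 lower, beside 5.95% and 6.99% of all probe sets that were higher. The share of all probe sets that were lower without vehicle 3 is not given here. In that fit, 434 probe sets passed the adjusted threshold in limma at 100 mg/kg, among them 4 members: Clk1 (adjusted p = 0.0373), Clk4 (0.0250), Luc7l2 (0.0295) and Rsrp1 (0.0277). At 50 mg/kg 10 probe sets passed and no member did. Hybridization controls averaged 10.73 and 10.84 on the 2 vehicle arrays left and 10.93 to 11.44 on the treated arrays. Negative minus positive control signal was -3.88 and -3.79 on those vehicle arrays and -3.53 to -3.12 on the treated ones. Treatment and this array-level difference cannot be told apart in that fit.

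With the mean of the hybridization controls as a covariate in all 9 arrays, 11 members were higher at 50 mg/kg and 10 at 100 mg/kg, and the medians were 0.64 and 0.80, while 3.22% and 3.02% of all probe sets were higher. With the contrast of negative and positive controls as the covariate, the counts were 14 and 19, while 5.7% and 7.19% of all probe sets were higher. At 50 mg/kg the calls of Srsf2, Srsf7, Tra2a, Luc7l3, Rbm5, Prpf38b and Son were lost under both covariates. With the contrast and the hybridization controls in turn, the differences at 50 mg/kg were 0.45 and 0.63 for Srsf2, 0.48 and 0.48 for Srsf7, and 0.56 and 0.55 for Tra2a. They were 0.88 and 1.08 for Luc7l3, 0.66 and 0.65 for Rbm5, 0.66 and 0.72 for Prpf38b, and 0.52 and 0.59 for Son. Besides Clk1, the calls of Srsf1, Srsf2, Rbm39 and Son at 100 mg/kg were lost under both covariates. In the same order, the differences were 0.42 and 0.63 for Srsf1, 0.30 and 0.52 for Srsf2, 0.72 and 0.87 for Rbm39, and 0.55 and 0.66 for Son. Those of Clk3 (1.08), Srsf4 (1.04), Srsf5 (1.85) and Rbm5 (0.75) were lost with the hybridization controls. Clk4, Prpf4b, Luc7l, Luc7l2, Luc7l3, Ccnl1, Prpf38b and Rsrp1 were called at 100 mg/kg under every alternative tried.

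**Figure D4:**
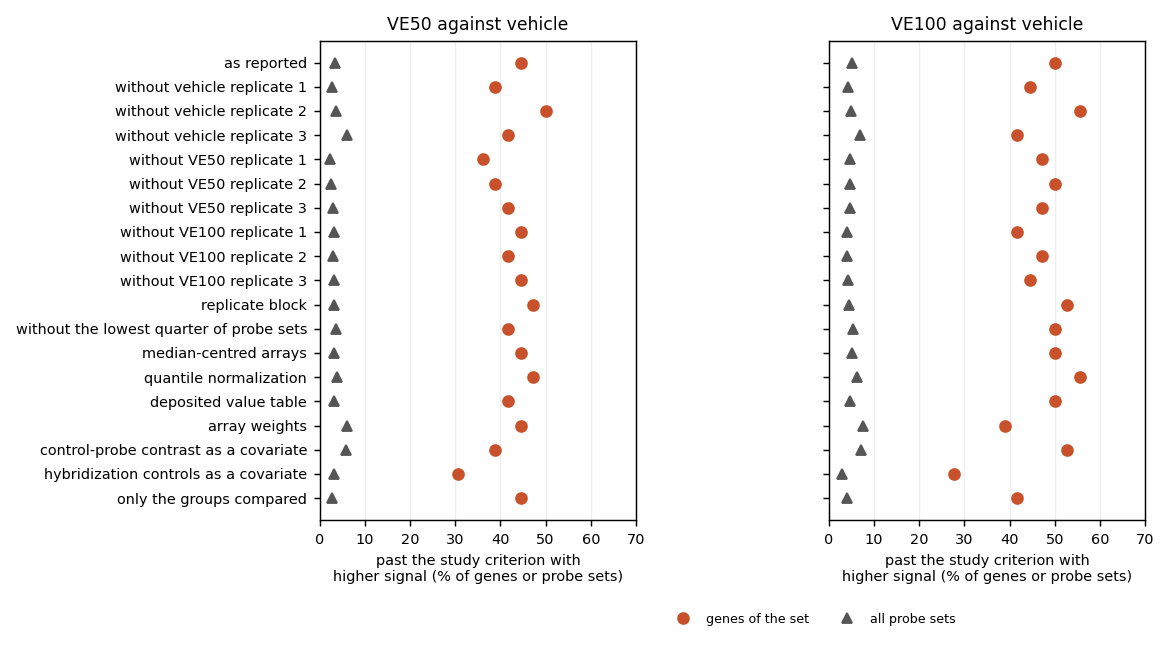
Share past the study criterion with higher signal (x axis, %) under each setting (y axis), for the 36 genes (circles) and all probe sets (triangles), at 50 mg/kg on the left and 100 mg/kg on the right. Over the alternatives the circles lie between 27.8% and 55.6% at 100 mg/kg and the triangles between 3.02% and 7.62%.

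Other genes of splicing control and RNA surveillance were listed beside the set, and 57 of 64 were measured. At 50 mg/kg 10 (17.5%) were higher and 0 lower by the criterion, beside 3.31% and 2.8% of all probe sets. At 100 mg/kg 11 (19.3%) were higher and 2 lower, beside 5.11% and 4.37% of all probe sets. The median difference was 0.21 at both doses. Without vehicle 3 the counts were 6 higher and 8 lower at 50 mg/kg, and 9 higher and 7 lower at 100 mg/kg. In that fit 5.95% and 6.99% of all probe sets were higher. The share of all probe sets that were lower in it is not given here, so the lower counts cannot be judged against it. The medians were then 0.06 and 0.16, and on vehicle 3 the median of these genes was -0.56. Of 39 SR-related and nuclear speckle genes, 7 (17.9%) were higher at 50 mg/kg, and 8 (20.5%) higher and 1 lower at 100 mg/kg. Of 14 nonsense-mediated decay factors, 2 (14.3%) were higher at 50 mg/kg, and 3 (21.4%) higher and 1 lower at 100 mg/kg. Of the 2 temperature-responsive genes, Rbm3 alone passed, at 50 mg/kg, and neither of the 2 measured nuclear-retained transcripts did.

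Pnn, which encodes the speckle protein pinin that Pnisr binds, read 9.50, 10.01 and 8.80 in vehicle, 9.89, 10.57 and 10.46 in VE50, and 11.32, 10.91 and 10.75 in VE100. Its VE100 arrays lay above all vehicle arrays, by 1.56 ± 0.33, and by 1.24 without vehicle 3. Rnps1, a splicing activator of the exon junction complex that was dim on all arrays, went the other way, at -0.79 ± 0.24 and, without vehicle 3, -0.98. Pabpn1 (1.29 ± 0.35), Rbm8a (1.14 ± 0.32), Zrsr2 (1.06 ± 0.30), Sfswap (1.01 ± 0.33, dim on all arrays) and Bclaf1 (0.73 ± 0.23) lay higher at 100 mg/kg and passed without vehicle 3 too. Srek1 (1.19 ± 0.42) did not pass without vehicle 3 (0.80).

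The authors' deposited table of VE100 against vehicle lists 1815 probe sets, 995 of them higher, and 17 of the 36 genes, all higher. All 17 passed the criterion here too, but both results come from the same arrays, so this overlap is not independent. Pnisr passed here, where the study's detection filter was not applied, and is not listed there. In the authors' deposited table the signed fold was 3.84 for Luc7l2, 3.83 for Rsrp1 and 2.5 for Clk4, beside 3.14, 3.84 and 2.83 here. That table lists its own group averages, and why its folds differ from those here was not tested. The false discovery rates of the 17 in the authors' deposited table ran from 0.347 to 0.6021.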

How the data were processed

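Liver RNA of 9 samples in 3 groups was read on Clariom S mouse arrays. Per the design text of the series, the authors obtained log2 signal for each probe set by SST-RMA, run in version 4.0.2 of Transcriptome Analysis Console, which includes background correction, normalisation across arrays and a summary over probes. A second deposited table has log2 values from the same arrays and includes control probe sets. It came from RMA of an unstated variant, per the submitters' processing notes. Probe sets were compared with the negative controls by the values of that second table. The filtered table from the authors lists a p-value and FDR of a one-way ANOVA with empirical Bayes correction, and a fold score whose sign is negative for lower signal in VE100. The study's detection filter was not applied here. No genome build is given for the arrays.

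Group means were estimated over the 9 arrays and 22206 probe sets with limma 3.58.1 (lmFit, eBayes) in R 4.3.3, two-sided, with Benjamini-Hochberg adjustment over all probe sets. The sources used here give no scan or slide batch, and no 2 arrays held identical values. The number of arrays limits the precision. All 36 symbols were found in the RefSeq table. The fit was tested on simulated data.

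The members and the gene and marker lists were chosen with earlier results of these data known. Array values are given for members past the study's criterion in any comparison. Other members are given by range, or as a relative of a named gene. Of the other genes, the 8 with the smallest p among those past the criterion at 100 mg/kg were named. Alternatives left out each array, changed normalisation, filter, weights or control-probe covariates, blocked on replicate number, or used the deposited table.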

Additional observations from a re-analysis of the deposited data

Results flagged for a closer look

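Tia1 stood out because its VE50 and VE100 groups differed by the study's criterion in the contrast between doses itself, at -0.64 on the log2 scale (VE100 minus VE50). Of the 36 genes it was the 1 called there, where 1.43% of all probe sets were lower, and its limma adjusted p was 0.9997. The call was kept under 17 of 19 alternatives, and it was lost without VE50 1 (-0.57) or VE100 2 (-0.43). Among the 19, averaging all probe sets of a symbol could not differ from the main fit. Leaving out a vehicle array does not change this estimate. The probe set was below the negative control percentile on all arrays.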

How the results depend on the processing

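Higher calls outnumbered lower calls at both doses, and the set's median difference from vehicle was above 0, under every alternative run. Leaving out 1 array at a time gave 13 to 18 called members at 50 mg/kg and 15 to 20 at 100 mg/kg, while 2.24% to 5.95% and 4.08% to 6.99% of all probe sets were higher, with medians of 0.467 to 0.706 and 0.475 to 0.785. At 100 mg/kg the median was 0.429 with array weights, where 14 members and 7.62% of all probe sets were higher. With the hybridization controls as a covariate, an alternative chosen after seeing the data, it was 0.798 and the count fell from 18 to 10, while 3.02% of all probe sets were called higher. The cause of these changes was not tested. Between the doses, the 1 call became 0 to 3 when 1 array was left out. It became 2 with array weights, 2 with the control-probe contrast, 2 with the hybridization controls and 3 with only the groups compared. Between the doses, 1.49% of all probe sets were higher and 1.43% lower in the main fit, and 2.54% were higher without vehicle 3. Shares for the other fits are not given here, so these few calls are not read as a result about the members. In the fit with the replicate block, 17 members were called at 50 mg/kg, 19 at 100 mg/kg and 1 between doses. At 50 mg/kg 3.08% of all probe sets were higher in that fit. At 100 mg/kg that share lay between 3.02% and 7.62% over the alternatives. No sign of pairing by replicate number was seen, though with 3 arrays per group this check cannot exclude it. Deviations of same-numbered arrays from their group means correlated at -0.237 to 0.208 across probe sets, over 0.1 in 3 of 9 pairs. Arrays with different numbers correlated at -0.225 to 0.265. Averaging all probe sets of a symbol changed nothing, since each member has 1. Low signal over background limits 11 of the 36 genes on all arrays.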
